A study of Mus musculus with 6 samples.

Results

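The glucuronosyltransferase (Ugt) and glutathione transferase (Gst) genes are the 2 main families of conjugating enzymes in liver, and they were compared between livers of mice with and without sickle cell disease. Members were all counted gene symbols beginning with Ugt1a, Ugt2a, Ugt2b, Ugt3a, or with Gst followed by the class letter a, k, m, o, p, t or z and a number. This took 41 of 24421 symbols, 20 Ugt and 21 Gst genes. Of these, 15 Ugt and 20 Gst genes had enough reads to be tested.

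Liver RNA was sequenced from mice of the Townes line at 7 months of age. The Townes line has human globin genes at the mouse globin loci, and all 6 libraries carried the alpha-globin allele Hbatm1(HBA)Tow. The 3 AS libraries carried the sickle allele Hbbtm2(HBG1,HBB*)Tow together with Hbbtm3(HBG1,HBB)Tow, which holds normal human beta-globin, and served as controls. The 3 SS libraries carried Hbbtm2(HBG1,HBB*)Tow alone. Mice with native mouse globin genes were not part of the comparison. Sex, litter and batch are not stated in the labels, nor whether each library came from its own animal, so the p-values describe the spread among these 6 libraries, which may be technical.

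UDP-glucuronosyltransferases are membrane enzymes of the endoplasmic reticulum that attach glucuronic acid, taken from UDP-glucuronate, to bilirubin, steroids, bile acids and drugs, which makes them soluble enough to leave in bile or urine. The Ugt1a genes share a locus in which each gene has its own first exon, spliced to a common set of later exons. Ugt1a1 encodes the enzyme that conjugates bilirubin, the breakdown product of heme that red cell destruction produces. Glutathione transferases are mostly cytosolic enzymes that join glutathione to reactive compounds, and they are grouped into classes named alpha, mu, pi, theta, zeta, omega and kappa.

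Gene reads per library ran from 6670011 to 13700194. Levels are given as CPM, a gene's counts scaled to a common library size with trimmed-mean (TMM) factors. Differences are log2 changes of SS against AS from edgeR's quasi-likelihood test, and a gene was called at a Benjamini-Hochberg adjusted p under 0.05 over the 12622 genes tested. AS replicates 2 and 3 were much more alike than any other pair (chi-square 3.98 per gene, against 27.9 to 170). AS replicate 1 and SS replicate 3 stood apart from the rest of their groups in several members described below. The labelled tissue was checked by albumin (Alb), which had 49637 to 85540 CPM in the 6 libraries. In bulk liver, fewer cells of a type and less RNA per cell cannot be told apart.

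No member of either family was called by edgeR, where 0.967% of all genes tested were called. Calls of all genes were mostly towards SS, with 0.911% higher there and 0.0555% lower. The lowest adjusted p by edgeR's quasi-likelihood test was 0.162 among the Ugt genes and 0.119 among the Gst genes. DESeq2, the other count test, called 2 Ugt genes lower (Ugt2a3 and Ugt2b1), 1 Gst gene lower (Gstt3) and 2 Gst genes higher (Gsta1 and Gstm3). Its calls took in 3.59% of all genes, 2.85% higher and 0.737% lower. The third tool, limma-voom, called no member, against 0.246% of all genes (0.238% higher and 0.00792% lower). At 3 libraries a group, a missed threshold does not show that a gene stayed the same.

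At an unadjusted p under 0.05, 5 Ugt genes were lower and 0 higher in SS, and 3 Gst genes were lower and 3 higher. Over all genes, the matching shares were 3.58% lower and 9.12% higher, or 12.7% in either direction. Abundant genes leaned more to lower values: of the genes whose mean reached 100 CPM, 15.4% had an unadjusted p under 0.05 with a lower value and 2.30% with a higher one. All 7 Ugt genes at that level had fitted values below 0, as did 81.5% of all genes at that level and 43.7% of all genes tested, and 5 of the 7 had an unadjusted p under 0.05. Of 11 Gst genes at that level, 7 had fitted values below 0. The median log2 change was -0.64 over the tested Ugt genes and -0.15 over the tested Gst genes, against 0.08 over all genes tested.

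**Figure D1:**
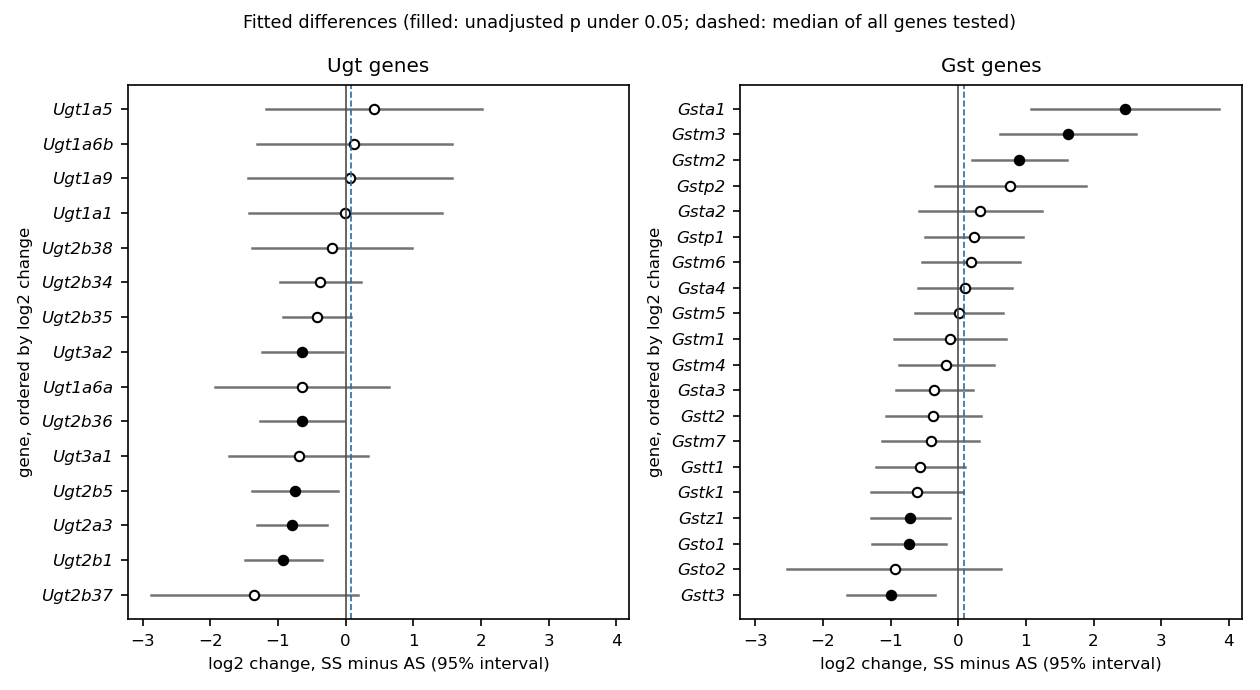
Log2 change (x axis, SS minus AS, with 95% interval) of each tested Ugt gene (left) and Gst gene (right), ordered by value; filled points have an unadjusted p under 0.05 and the dashed line is the median of all genes tested. Ugt genes span -1.35 (Ugt2b37) to 0.42 (Ugt1a5), and Gst genes span -0.99 (Gstt3) to 2.46 (Gsta1).

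The summed Ugt level did not overlap between the groups. It was 3676, 2988 and 3001 CPM in AS replicates 1, 2 and 3, and 2201, 1880 and 2266 CPM in SS replicates 1, 2 and 3. Most of it came from the Ugt2 genes, whose sum was 2720 ± 468 CPM (SD, n = 3) for AS and 1724 ± 158 CPM for SS. Ugt3a genes added 318 ± 16.1 and 204 ± 59.3 CPM, and Ugt1a genes 183 ± 59.6 and 187 ± 198 CPM. The sum for the Gst genes was 7363 ± 558 CPM for AS and 6356 ± 1981 CPM for SS, and here the groups overlapped. SS replicate 2 had the highest Gst sum of all libraries, 8311 CPM, and SS replicate 3 the lowest, 4349 CPM.

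**Figure D2:**
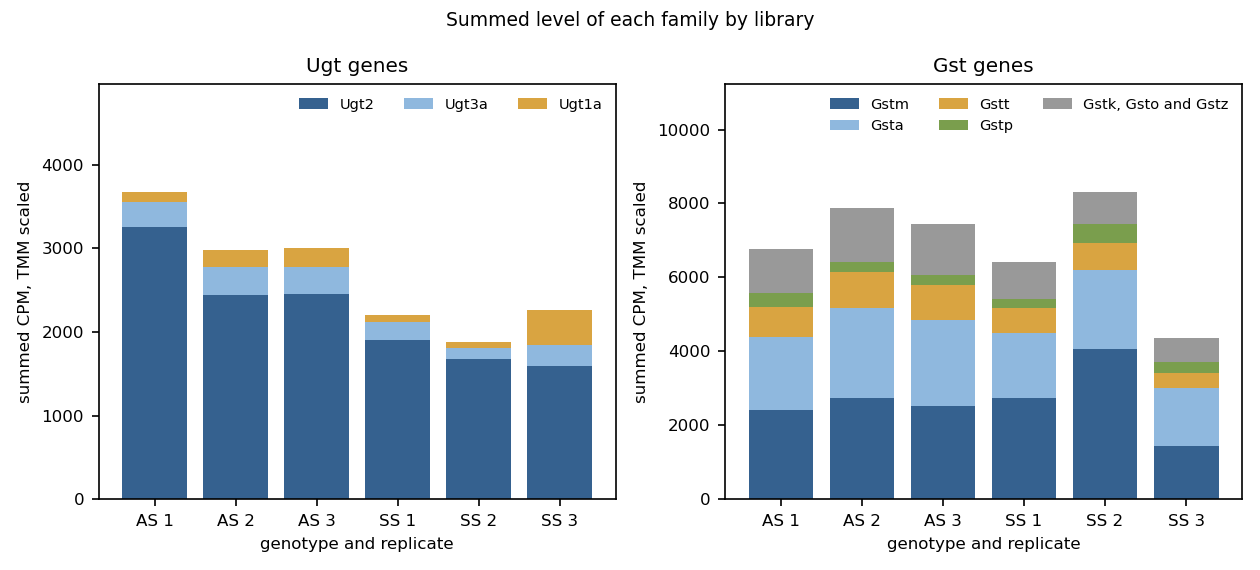
Summed CPM (y axis, from 0) of the Ugt genes (left) and the Gst genes (right) in each library (x axis), divided by gene group. The 3 SS libraries lie below the 3 AS libraries for Ugt, with Ugt1a making up 415 CPM in SS replicate 3, while the Gst sums of SS libraries run from 4349 to 8311 CPM.

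The Ugt1a genes lie together on chromosome 1, with Ugt1a1 at 88211959 to 88218997 (mm10, plus strand), and 8 of them were counted. For Ugt1a1, 1311 of 2224 exon bases, or 58.9%, also belong to other counted Ugt1a genes in the GENCODE annotation, which leaves 913 bases that are its own. The stretch of coding sequence where the own first exon ends and the common part begins is shown for the 5 tested genes, since it is the point past which a read no longer tells them apart. Each line gives 30 bases of the gene's own part in lower case and the first 30 bases that all 5 genes share in capitals, from GENCODE transcripts.
Ugt1a1: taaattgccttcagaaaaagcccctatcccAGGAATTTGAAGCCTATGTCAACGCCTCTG
Ugt1a5: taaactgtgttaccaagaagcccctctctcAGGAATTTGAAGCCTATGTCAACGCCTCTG
Ugt1a6a: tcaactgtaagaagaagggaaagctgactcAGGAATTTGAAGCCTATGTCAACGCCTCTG
Ugt1a6b: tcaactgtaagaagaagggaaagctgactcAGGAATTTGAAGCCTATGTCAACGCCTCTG
Ugt1a9: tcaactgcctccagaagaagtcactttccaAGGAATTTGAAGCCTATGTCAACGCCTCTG
The common part runs for 737 coding bases to the end of the coding sequence. In Ugt1a1 it follows 868 bases that are not common to all 5. Ugt1a6a and Ugt1a6b had the same 30 bases before the junction and were 98.4% identical over the coding sequence, so the split of reads between these 2 genes is uncertain.

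Counts of the Ugt1a genes differed widely within a library, which would not be so had each gene been credited with the reads of the common exons. In SS replicate 3, Ugt1a1 had 2551 counts and Ugt1a9 2246, while Ugt1a2 had 10 and Ugt1a10 had 13. Reads of the common exons were thus not credited to every gene. Per kb of exon that no other counted gene shares, the mean level was 99.2 CPM for Ugt1a1, 87.0 CPM for Ugt1a9 and 6.75 CPM for Ugt1a5. For Ugt1a6a it was 21.7 CPM, but only 222 of its 2392 exon bases are its own, so that value is uncertain.

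Ugt1a1, the bilirubin enzyme, was not called, and its SS libraries disagreed with each other. It had 60.2, 105 and 107 CPM in AS replicates 1, 2 and 3, and 41.8, 30.1 and 200 CPM in SS replicates 1, 2 and 3. SS replicates 1 and 2 lay below every AS library, and SS replicate 3 lay above every AS library. The log2 change was -0.0014 (SE 0.631, 95% interval -1.42 to 1.42, edgeR adjusted p = 0.9998). Without SS replicate 3 it was -1.35, which edgeR did not call, and without AS replicate 1 it was -0.23.

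In 3 of the other 4 tested Ugt1a genes SS replicate 3 was also the highest of all libraries, while the order of the rest varied. Ugt1a9, whose enzyme conjugates phenols and fatty acids, had 44.0, 88.3 and 92.1 CPM in AS and 28.9, 29.9 and 176 CPM in SS. Ugt1a5 had 1.84, 5.80 and 7.85 CPM in AS and 1.85, 3.99 and 14.8 CPM in SS. For Ugt1a6b, from a pair of genes that encode phenol-conjugating enzymes, values were 3.92, 7.41 and 6.30 CPM in AS and 2.64, 2.39 and 14.0 CPM in SS. In SS replicate 3 the level was 5.55 times the mean of the other SS libraries for Ugt1a1, 5.97 times for Ugt1a9 and 5.57 times for Ugt1a6b. Ugt1a6a was 3.64 times as high there, but at 7.28 CPM stayed within the AS range of 3.92 to 8.10 CPM.

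Abcc2, the canalicular pump that exports bilirubin glucuronides, was also highest in SS replicate 3, though AS replicate 1 was its lowest library, with 99.2, 212 and 218 CPM in AS and 127, 102 and 575 CPM in SS. Ugdh, which makes UDP-glucuronate, also had its highest value, 381 CPM, in SS replicate 3, against 95.2 to 223 CPM in the other 5 libraries. Slc35d1, a transporter of UDP-glucuronate into the endoplasmic reticulum, had 69.4 CPM there and at most 45.0 CPM elsewhere. The other genes listed for making and moving UDP-glucuronate were mixed in that library. Slc35a3 was highest there (53.0 CPM), but Slc35b1 was lowest (27.6 CPM), and Ugp2 (221 CPM) lay below its AS range of 273 to 306 CPM. SS replicate 3 also had the lowest value of all libraries for Gstm1, Gstt1 and Gstz1. The part of that library in these results was not tested beyond leaving it out. Dropping AS replicate 1 as well as SS replicate 3 was tried after the values were known, and edgeR then called Ugt1a1 (log2 change -1.57, edgeR adjusted p = 0.00500) and Ugt1a9 (-1.62, edgeR adjusted p = 0.00170) lower. In that setting 5.21% of all genes were called, 2.49% lower and 2.72% higher.

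**Figure D3:**
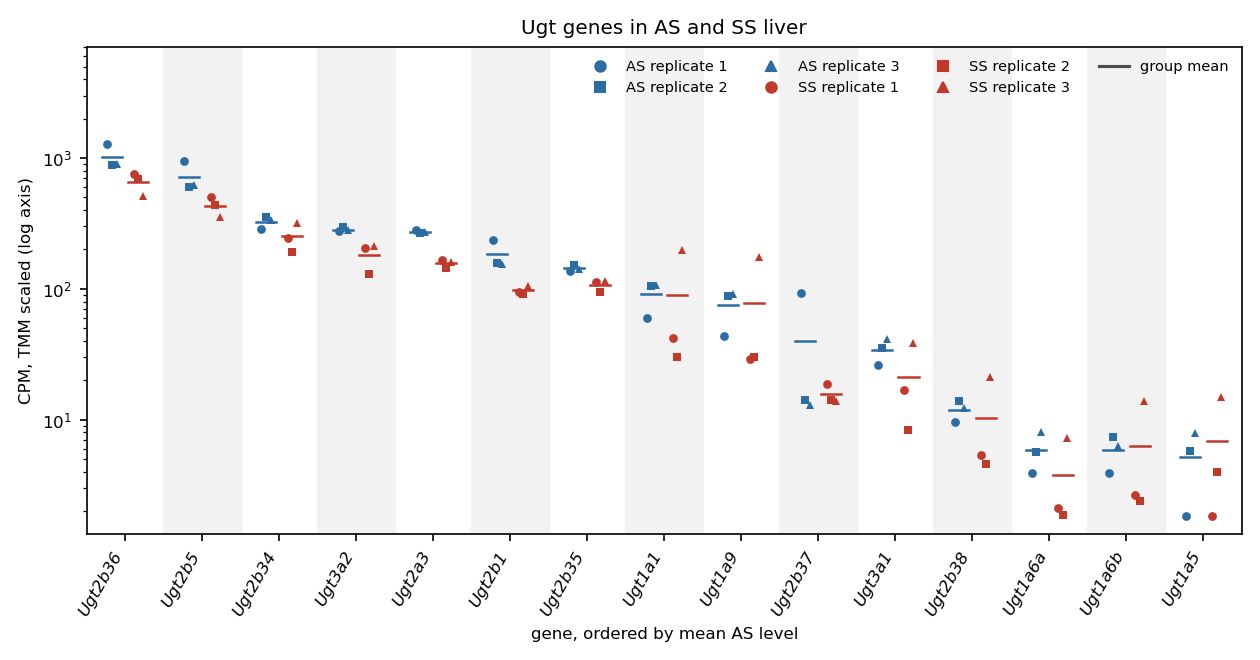
CPM (log axis) of the 15 tested Ugt genes in each library, AS in blue and SS in red, with a marker shape for each replicate and a line at each group mean. SS replicate 3 (red triangles) stands above the other SS libraries in the Ugt1a genes, as in Ugt1a1 at 200 CPM against 41.8 and 30.1, and AS replicate 1 stands apart in Ugt2b37 at 92.2 CPM.

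Most hepatic Ugt RNA came from the Ugt2 genes of chromosome 5, whose enzymes conjugate steroids, bile acids and drugs. Of the 10 counted, 8 were tested, and all 8 had fitted values below 0, 4 of them with an unadjusted p under 0.05. In 5 of the 8 the groups did not overlap, with every SS library below every AS library. Such separation towards lower values held for 9.04% of all genes tested and for 31.3% of those with a mean of at least 100 CPM, the level that all 5 of these genes reached.

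Ugt2b36 (87065927 to 87092555, mm10) had the highest mean level of the family per kb of exon, 444 CPM, followed by Ugt2b5 at 310 CPM. Ugt2b36 had 1271, 890 and 906 CPM in AS replicates 1, 2 and 3 and 758, 695 and 509 CPM in SS replicates 1, 2 and 3 (edgeR log2 change -0.65 with SE 0.282 and adjusted p = 0.382). Ugt2b5 had 942, 596 and 625 CPM in AS and 504, 437 and 353 CPM in SS (edgeR log2 change -0.74 with SE 0.287 and adjusted p = 0.320). In both genes AS replicate 1 was the highest library and SS replicate 3 the lowest, and the groups did not overlap. Ugt2b5 shares 41.7% of its 50-base stretches with another gene, most of all Ugt2b38, so its reads could be split or lost, whereas Ugt2b36 shares 0.285%.

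Ugt2a3 and Ugt2b1 had the lowest p-values of the family. Ugt2a3, an enzyme of liver and gut, had 280, 265 and 270 CPM in AS and 166, 144 and 162 CPM in SS. Values within each genotype were close and those of SS were all lower, by -0.79 on the log2 scale (SE 0.234, 95% interval -1.31 to -0.27, edgeR adjusted p = 0.180, DESeq2 adjusted p = 0.0152). Ugt2b1 had 238, 158 and 155 CPM in AS and 94.7, 91.8 and 105 CPM in SS, again without overlap. Its log2 change was -0.92 (SE 0.259, 95% interval -1.49 to -0.34, edgeR adjusted p = 0.162, DESeq2 adjusted p = 0.0242). Ugt2b1 shares none of its 50-base stretches with another gene.

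The other Ugt2b genes were less uniform. Ugt2b35 had 138 to 151 CPM in AS and 95.4 to 114 CPM in SS, without overlap (log2 change -0.42, SE 0.226). Ugt2b34 had 289, 354 and 336 CPM in AS and 243, 192 and 320 CPM in SS, where SS replicate 3 lay within the AS range (log2 change -0.37, SE 0.272). Ugt2b38 was also highest in SS replicate 3, with 21.0 CPM in SS replicate 3 against 5.41 and 4.57 CPM in SS replicates 1 and 2 and 9.67 to 14.0 CPM in AS. Its coding sequence is 97.0% identical to that of Ugt2b5.

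Ugt2b37 had the most negative log2 change of the family, -1.35 (SE 0.682, edgeR adjusted p = 0.444), which rested on 1 library. AS replicate 1 had 92.2 CPM, 6.81 times the mean of the other AS libraries, which had 14.2 and 12.9 CPM, and the SS libraries had 18.9, 14.2 and 13.8 CPM. Without AS replicate 1 the log2 change was 0.19. That library also had the highest summed level of 10 genes known for higher expression in male liver, 1229 CPM against 406 to 489 CPM in the other 5 libraries. Most of that sum came from Serpina1e (708 CPM) and Cyp7b1 (294 CPM), while Cyp2d9 on the same list was not high there (89.7 CPM, against 121 CPM in each of the other AS libraries) and Mup20 was highest in SS replicate 3. Slco1a1, an anion uptake carrier on that list, had 70.8 CPM in AS replicate 1 and 4.82 to 13.1 CPM elsewhere. Xist, which coats the silenced X in female cells, had 156 CPM there and 456 to 952 CPM elsewhere, while of 4 Y-linked genes Kdm5d and Uty had 0 counts in all libraries, Ddx3y had 2 counts in AS replicate 1 and 1 in SS replicate 3, and Eif2s3y had 4 in SS replicate 1. The part of these differences in the values of Ugt2b37 was not tested.

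Ugt3a genes, whose human counterparts use sugars other than glucuronic acid, were also lower in fitted value. Ugt3a2 (chromosome 15, 9335550 to 9370955) had 275, 298 and 279 CPM in AS and 204, 129 and 214 CPM in SS, and the groups did not overlap (log2 change -0.64, SE 0.270, edgeR adjusted p = 0.368). Ugt3a1 had 26.3 to 41.3 CPM in AS and 16.8, 8.41 and 38.5 CPM in SS, where SS replicate 3 again lay within the AS range.

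The 5 Ugt genes not tested were Ugt1a2, Ugt1a7c, Ugt1a10, Ugt2a1 and Ugt2a2. Ugt1a7c reached 29 counts in SS replicate 3 and at most 4 elsewhere. Ugt2a1, known from olfactory tissue, had 3 counts in all, and Ugt2a2 had 0, which allows up to 3 counts over the 6 libraries and covers counting error alone. Ugt2a1 and Ugt2a2 share 68.9% and 69.7% of their exon bases with each other, so reads there may have been dropped in counting.

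Among the Gst genes, Gstm3, Gstm2 and Gsta1 had the largest positive differences, and none passed edgeR's adjusted threshold. Alpha and mu genes with other patterns lay beside them in the same clusters. The 7 mu genes lie on chromosome 3 between 107895821 (start of Gstm5) and 108044894 (end of Gstm4, mm10). Their first 60 coding bases are shown for the most abundant member, Gstm1, and for the genes with positive differences, to show how closely related the counted sequences are. Bases that differ from Gstm1 are in capitals.
Gstm1: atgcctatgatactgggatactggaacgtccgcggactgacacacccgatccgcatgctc
Gstm2: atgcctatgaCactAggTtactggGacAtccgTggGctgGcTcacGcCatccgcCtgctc
Gstm3: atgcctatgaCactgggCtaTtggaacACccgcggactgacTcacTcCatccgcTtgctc
In this window Gstm2 differs from Gstm1 at 12 bases and Gstm3 at 9. Over the whole coding sequence Gstm3 and Gstm1 were 89.4% identical, and Gstm2 and Gstm1 85.9%. Gstm3 shares 28.8% of its 50-base stretches with another gene, most of them with the gene model Gm8834, and Gstm2 shares 5.65%.

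Gstm3 had 65.4, 149 and 151 CPM in AS replicates 1, 2 and 3 and 241, 642 and 246 CPM in SS replicates 1, 2 and 3. Every SS library lay above every AS library, and SS replicate 2 was more than 2 times as high as any other. The log2 change was 1.62 (SE 0.455, 95% interval 0.62 to 2.63, edgeR adjusted p = 0.157, DESeq2 adjusted p = 0.0123), and 0.99 without SS replicate 2. Gstm2 had 114, 136 and 124 CPM in AS and 255, 312 and 134 CPM in SS, where SS replicate 3 was within the AS range. By edgeR the log2 change was 0.90, with SE 0.320 and an adjusted p = 0.278. Without SS replicate 3 it was 1.18, and edgeR then called it (adjusted p = 0.0314) where 0.768% of all genes were called, 0.659% higher and 0.109% lower.

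Gstm1, with Gsta3 the most abundant Gst gene per kb of exon, showed no such difference. It had 1940, 2138 and 1938 CPM in AS and 1958, 2708 and 879 CPM in SS, so the SS libraries lay on both sides of AS. The log2 change was -0.12 (SE 0.374, 95% interval -0.95 to 0.71), and 0.21 without SS replicate 3. The other mu genes were flat or mixed: Gstm6 had a log2 change of 0.19, Gstm5 0.01, Gstm4 -0.18 and Gstm7 -0.41, all with edgeR adjusted p-values above 0.6. Gstm3 made up 1.63% of the summed Gst level in AS and 5.71% in SS, on average over libraries.

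Gsta1 (chromosome 9, 78230656 to 78242684) had 0.576, 4.83 and 2.29 CPM in AS and 12.3, 20.5 and 8.45 CPM in SS, and the groups did not overlap. The log2 change, 2.46 (SE 0.629, 95% interval 1.07 to 3.86, edgeR adjusted p = 0.119, DESeq2 adjusted p = 0.00395), was the largest of all members. Its reads can hardly be told from those of near copies, as the first 60 coding bases of Gsta1 and of its neighbour Gsta2 show.
Gsta1: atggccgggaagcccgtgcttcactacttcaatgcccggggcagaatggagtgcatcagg
Gsta2: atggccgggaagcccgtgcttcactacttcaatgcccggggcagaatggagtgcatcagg
Here the count of differing bases is 0, and over the coding sequence the identity was 97.6%. Of the 50-base stretches of Gsta1, 90.5% also occur in another gene, most of them in the gene model Gm3776, and 49.8% of those of Gsta2. Gm3776, named after its values were seen, had 0, 1.45 and 1.23 CPM in AS and 7.52, 12.0 and 7.04 CPM in SS, again without overlap (log2 change 3.32, SE 0.780, edgeR adjusted p = 0.0901). Another gene model examined with it, Gm10639, had 0, 2.09 and 1.23 CPM in AS and 1.98, 1.96 and 0.548 CPM in SS, with overlapping groups (log2 change 0.45, SE 1.03). Gsta2 did not share this pattern: it had 20.2, 73.8 and 64.9 CPM in AS and 61.4, 82.1 and 55.3 CPM in SS, and AS replicate 1 was the lone low library (log2 change 0.32, SE 0.411, and -0.076 without AS replicate 1).

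The other alpha genes were not called either. Gsta3, an abundant enzyme of mouse liver known for detoxifying aflatoxin epoxide, had 1893, 2258 and 2169 CPM in AS and 1598, 1894 and 1460 CPM in SS, with an overlap of 1 library (log2 change -0.35, SE 0.257, edgeR adjusted p = 0.585). Gsta4, which conjugates the lipid peroxidation product hydroxynonenal, had 58.2, 96.8 and 88.9 CPM in AS and 79.8, 122 and 58.9 CPM in SS, and its log2 change was 0.10 (95% interval -0.60 to 0.80). Its spread within each genotype was larger than the difference between them.

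**Figure D4:**
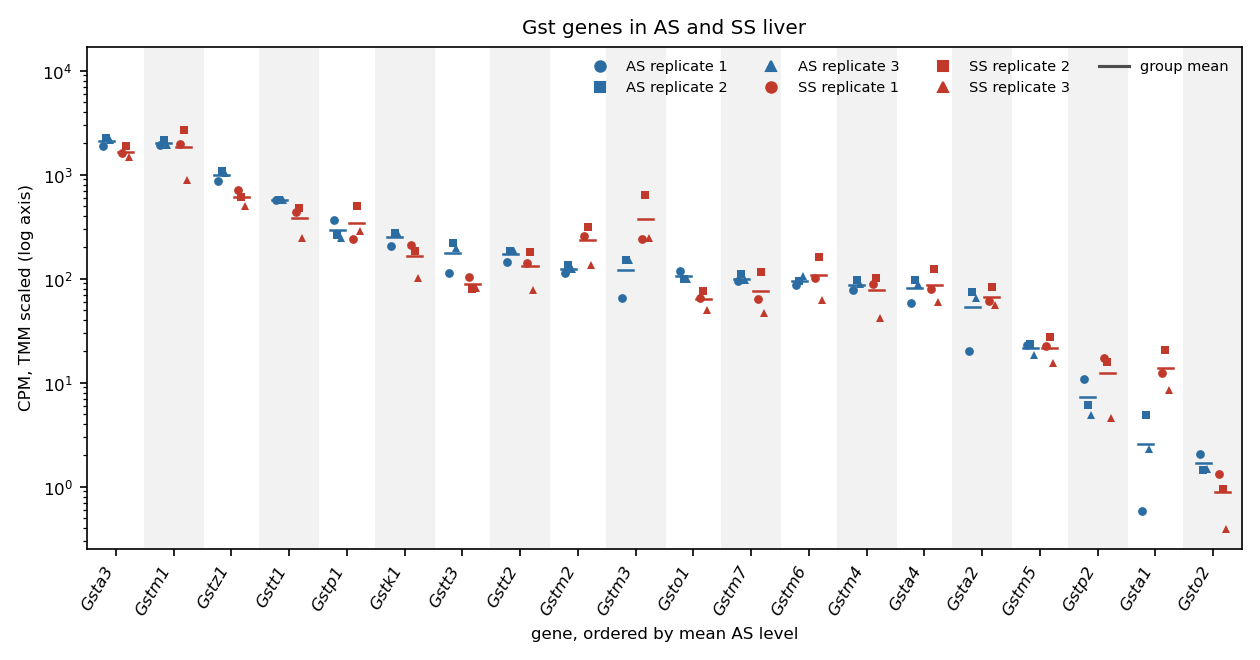
CPM (log axis) of the 20 tested Gst genes in each library, AS in blue and SS in red, with a marker shape for each replicate and a line at each group mean. Gsta1 and Gstm3 have all SS points above all AS points, as at 241 to 642 CPM against 65.4 to 151 for Gstm3, and SS replicate 3 (red triangles) is lowest in Gstm1 at 879 CPM.

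Pi class genes, which are higher in male than in female mouse liver, overlapped between the groups. Gstp1 had 367, 264 and 248 CPM in AS and 241, 503 and 288 CPM in SS (log2 change 0.23, SE 0.327). Gstp2 had 10.7, 6.12 and 4.91 CPM in AS and 17.0, 15.7 and 4.54 CPM in SS (log2 change 0.77, SE 0.505). Gstp1 and Gstp2 were 98.1% identical over the coding sequence and share 33.7% and 54.3% of their 50-base stretches with other genes, so both values are uncertain. In AS replicate 1, where the summed male-biased genes were high, mainly through Serpina1e and Cyp7b1, Gstp1 was 1.44 times and Gstp2 1.94 times the mean of the other AS libraries.

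Theta, zeta and omega genes had lower fitted values in SS. Gstt3 had 113, 219 and 195 CPM in AS and 104, 79.6 and 80.7 CPM in SS, so that the groups did not overlap but AS replicate 1 came close to SS. The log2 change was -0.99 (SE 0.295, 95% interval -1.65 to -0.34, edgeR adjusted p = 0.183, DESeq2 adjusted p = 0.0335). Gstt1, which acts on halogenated compounds, had 566, 568 and 573 CPM in AS and 435, 479 and 244 CPM in SS, again without overlap (log2 change -0.56, SE 0.297, edgeR adjusted p = 0.459). Gstt2 had a log2 change of -0.37, with overlapping groups, and Gstt4 had at most 5 counts in a library and was not tested.

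Gstz1 encodes maleylacetoacetate isomerase, an enzyme of tyrosine breakdown that also uses glutathione. It had 867, 1077 and 1029 CPM in AS and 715, 607 and 495 CPM in SS, without overlap (log2 change -0.71, SE 0.264, edgeR adjusted p = 0.304). Of its exon bases, 21.6% overlap the neighbouring gene Pomt2. Gsto1, an omega class enzyme that reduces dehydroascorbate, had 119, 98.1 and 98.4 CPM in AS and 64.7, 75.9 and 50.2 CPM in SS, also without overlap (log2 change -0.72, SE 0.245, edgeR adjusted p = 0.254). Gstk1, the kappa enzyme of mitochondria and peroxisomes, had 207 to 277 CPM in AS and 208, 184 and 101 CPM in SS (log2 change -0.61, SE 0.310), and Gsto2 had no more than 2.07 CPM in any library. Of the tested Gst genes, 5 had separated groups with SS lower and 2 with SS higher, where all genes had shares of 9.04% and 12.1%. At a mean of at least 100 CPM these shares were 31.3% and 2.23%, and 3 Gst genes were separated with SS lower and 1 with SS higher.

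**Figure D5:**
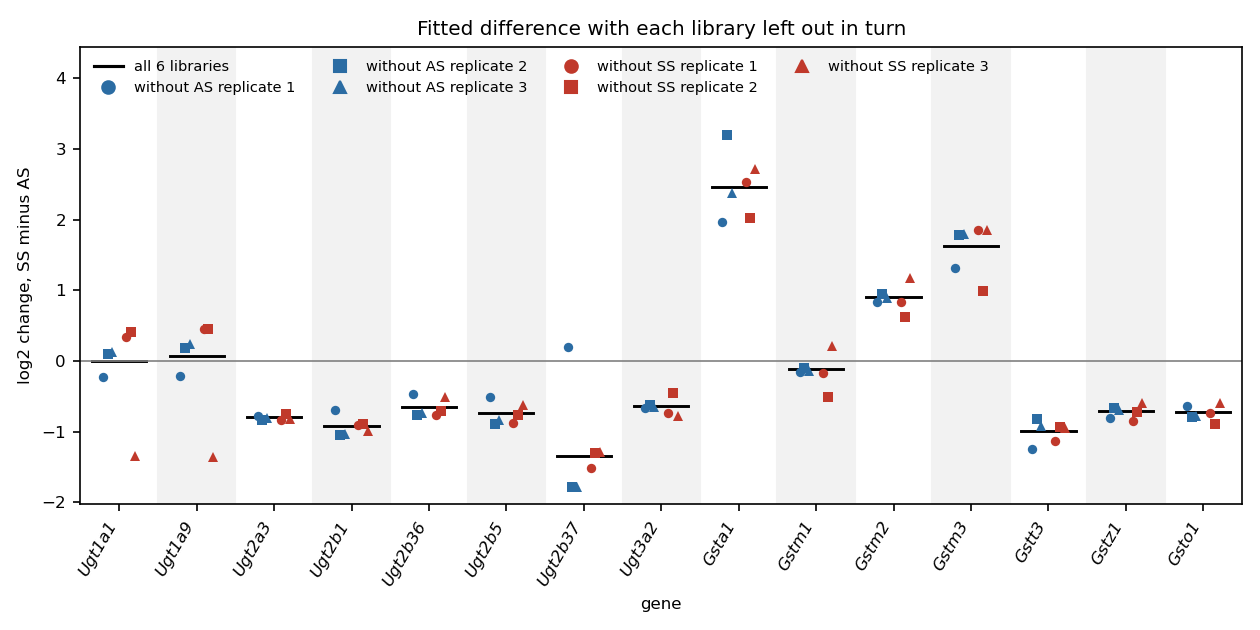
Log2 change of 15 members (y axis, SS minus AS) with all 6 libraries (black line) and with each library left out in turn (points). Ugt1a1 and Ugt1a9 move to -1.35 without SS replicate 3, Ugt2b37 moves to 0.19 without AS replicate 1, and Ugt2a3 stays between -0.83 and -0.74.

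Genes around these enzymes were read from lists of the same pathways. Ugp2 had the lowest p of 5 genes for making and moving UDP-glucuronate (log2 change -0.49). None of the 5 was called, 3 with higher and 2 with lower fitted values. Nor were any of the 9 genes of bilirubin formation and transport, where Hmox1, the heme oxygenase that starts bilirubin formation, had 49.2 to 62.2 CPM in AS and 70.1, 351 and 215 CPM in SS. Hmox1 had separated groups and edgeR gave 1.91 on the log2 scale (SE 0.472, adjusted p = 0.111). Of 10 genes tested for glutathione synthesis and turnover, 0 were called and 0 had an unadjusted p under 0.05. Their fitted values were higher for 5 and lower for 5, with the lowest p for Chac2 (log2 change -0.61). Gclc, which sets the rate of glutathione synthesis, had a log2 change of 0.02.

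Of 10 genes for glutathione peroxidases and reduction, 6 had higher and 4 lower fitted values. EdgeR called 1 of them, higher in SS, where 0.911% of all genes were called higher. This was Gpx3, which encodes the secreted peroxidase, with 7.49, 3.06 and 4.25 CPM in AS and 19.9, 36.4 and 24.6 CPM in SS (edgeR log2 change 2.44 with SE 0.396, adjusted p = 0.0209). Gpx1, the most abundant of the 10, had 4405, 3550 and 3289 CPM in AS and 2753, 2815 and 1119 CPM in SS (edgeR log2 change -0.75 with SE 0.363, adjusted p = 0.425). The summed level of the 10 genes was 3923 to 5583 CPM in AS and 1708 to 3842 CPM in SS. None of 8 tested genes for other glutathione transferases and related proteins, outside the symbol rule, was called. Among them Mgst1, the microsomal enzyme of the endoplasmic reticulum and mitochondria, had 4666, 3915 and 3869 CPM in AS and 3274, 2748 and 1909 CPM in SS, without overlap (log2 change -0.65, SE 0.288, edgeR adjusted p = 0.387).

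No gene was called among 12 regulators, which included the xenobiotic receptors Nr1i2 (PXR, log2 change 0.10), Nr1i3 (CAR, -0.12) and Ahr (0.66) and the antioxidant factor Nfe2l2 (NRF2, 0.09). Of 9 tested genes known as targets of such factors, Cyp2c55 rose from 9.67 ± 1.98 to 34.8 ± 5.74 CPM (SD, n = 3, log2 change 1.84, SE 0.287, edgeR adjusted p = 0.0169). Cyp2b10, a target of CAR, had 33.4, 91.7 and 87.2 CPM in AS and 29.8, 17.6 and 31.4 CPM in SS (edgeR log2 change -1.43 with SE 0.390, adjusted p = 0.146), and the NRF2 target Nqo1 had a log2 change of 0.02. On the same list, Cyp1a2 had a log2 change of -0.82 (edgeR adjusted p = 0.281) and Nr0b2 one of -0.79 (edgeR adjusted p = 0.421). Of the 9 genes, 4 had higher and 5 lower fitted values. 

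Marker levels of several other cell types differed between the genotypes. Over all genes tested, edgeR called 0.911% higher. The summed level of 7 erythroid genes was 45.0 to 63.8 CPM in AS and 244 to 476 CPM in SS, with 3 of 7 called higher. In SS most of that sum was Alas2, and Klf1 went the other way (log2 change -0.86, not called). For 6 monocyte or macrophage genes the sum was 287 to 366 CPM in AS and 345 to 762 CPM in SS, with 2 called higher. For 6 neutrophil genes it was 3.11 to 6.56 CPM in AS and 20.4 to 75.3 CPM in SS, with 2 of 5 tested called higher. Stellate cell or fibroblast markers had 288 to 368 CPM in AS and 420 to 627 CPM in SS, with Col1a2 and Lum of 6 called higher. Markers of sinusoidal endothelium overlapped, at 219 to 320 CPM in AS and 250 to 342 CPM in SS, with 0 of 5 called. Bile duct markers had 97.8 to 115 CPM in AS and 125 to 264 CPM in SS, with 0 of 5 tested called. Most of that sum was Spp1, at 69.8 to 95.7 CPM in AS and 102 to 219 CPM in SS, while Sox9, Epcam and Krt19 overlapped between the groups, Krt19 at 0.782 to 3.43 CPM. The summed hepatocyte markers, mostly Alb, were 90125 to 131275 CPM in AS and 74630 to 101958 CPM in SS. All 6 had fitted values below 0 (median log2 change -0.35), 1 with an unadjusted edgeR p under 0.05. Of 6 periportal hepatocyte genes 5 were lower, 3 of them at that p, and 1 higher (median -0.70). Of 8 pericentral genes 3 were lower, 2 at that p, and 5 higher, 1 at that p (median 0.25). In these 3 lists 0 genes were called. Of all genes whose mean reached 100 CPM, 81.5% had fitted values below 0. The part of these shifts in the Gstm3, Gsta1 and Ugt2 differences was not tested.

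Promoters were available from RefSeq (GRCm38.p6) for 37 of 41 members, several for some genes. The 250 bases before each listed start were searched on both strands. The core antioxidant response element TGACNNNGC, the binding motif of NRF2, occurred for 3 of 19 Gst genes and 0 of 18 Ugt genes. A gene was counted if any of its promoters had a match, so genes with several had more chances. Of all promoters of this length, each counted singly, 10.2% held this element. The windows that hold it are shown with the motif in capitals, because this motif is the textbook link between glutathione transferases and oxidative stress.
Gsta3 (chr1:21240449-21240487, plus strand): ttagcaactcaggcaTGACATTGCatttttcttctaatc
Gstm5 (chr3:107895797-107895835, plus strand): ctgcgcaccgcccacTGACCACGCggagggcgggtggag
Gstm7 (chr3:107931720-107931758, minus strand): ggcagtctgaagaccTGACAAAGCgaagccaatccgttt
None of these 3 genes had an unadjusted p under 0.05. The window shown for Gstm7 precedes another RefSeq start and lies inside the gene as GENCODE places it. Directly before the GENCODE start of Gstm7 (107931817) there was no match. No match to TGACNNNGC was found within 250 bases for Gstm3, Gstm2 or Gsta1, which says only that these letters are not in that window. The core of the xenobiotic response element, GCGTG, was found in 4 Gst promoters (Gsta2, Gstm1, Gstm5 and Gstp1) and 1 Ugt promoter (Ugt1a5), against 28.2% of all promoters.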

How the data were processed

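HISAT2, HTSeq and the build mm10 are named in the submitters' processing notes, and the authors deposited raw read counts for 24421 gene symbols per library. Versions, annotation, strand and read filters are not given in the sources used here, so reads of shared exons, near-identical copies or antisense neighbours could be dropped or misassigned. The 5 counter lines stayed out of library sizes and tests, and ambiguous records were 0.291% to 0.537% of records. Records whose alignment was not unique, which would include reads of near-identical copies, were a larger share. They were 22.8%, 18.4% and 19.0% in AS replicates 1, 2 and 3 and 14.7%, 15.3% and 16.2% in SS replicates 1, 2 and 3. The genes they came from are not given, so their part in the values of such copies was not tested. Gene reads ran from 6670011 to 13700194 per library, and reads are not unique molecules.

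From the counts, genes were filtered with filterByExpr (minimum count 10, minimum total 15), leaving 12622 with 99.8% of gene reads. The SS and AS groups (3 libraries each) were compared by edgeR 4.0.16 in R 4.3.3 with TMM factors, a robust quasi-likelihood F-test (two-sided) and Benjamini-Hochberg adjustment over all genes tested. The procedure was tested on simulated data. Standard errors (SE) come from the F statistic. Intervals are 95%. Alternatives used DESeq2 1.42.0, limma-voom (limma 3.58.1), other scalings and filters, a replicate block and left-out libraries.

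Exon lengths, positions and 50-base overlaps came from GENCODE M21 (mm10, 41 of 41 members matched). Members, lists and tests were chosen with earlier results of these data known. Given with each library's value were Ugt1a1, members with an unadjusted p under 0.05, the 5 highest of each family per kb of exon, Gstp1, Gstp2 and Gsta4, and others where libraries disagreed, chosen after seeing the values. Of pathway lists, called genes and some of those of lowest p were named, and Abcc2, Gclc, Slc35d1, Nr1i2, Nr1i3, Nfe2l2 and Nqo1 after seeing their values. The main comparison did not pair the samples by replicate number, a pairing that the counts could not settle.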

Additional observations from a re-analysis of the deposited data

How the results depend on the processing

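Over 17 alternatives, 22 of 35 tested members kept the direction of their log2 change, including 6 of 8 Ugt2, 2 of 2 Ugt3a and 13 of 20 Gst genes, but 1 of 5 Ugt1a genes. The number of genes called over the whole table was 122. It was 217 with no filter, 453 by DESeq2, 31 by limma-voom, 460 with the replicate block, 22 to 99 with 1 library left out (22, 26 and 38 when AS replicate 1, 2 or 3 was dropped, 26 when SS replicate 2 was), 662 without AS replicate 1 and SS replicate 3 together, and 31 with AS replicates 2 and 3 summed, the last 2 settings chosen after seeing the data. Ugt members called, 0 in the main comparison, were 2 by DESeq2 and 7 without AS replicate 1 and SS replicate 3 together (Ugt1a1, Ugt1a9, Ugt2a3, Ugt2b1, Ugt2b34, Ugt2b38 and Ugt3a1, all lower). Gst members called were 3 by DESeq2, 2 with the replicate block (Gsta1 and Gstm3 higher, where 2.91% of all genes were), 0 to 1 with 1 library left out and 6 without AS replicate 1 and SS replicate 3 together (Gsta1, Gstm2, Gstm3 and Gstp2 higher, Gstt3 and Gstz1 lower). The causes were not tested.

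Same-numbered AS and SS libraries had correlations of deviations of 0.050, -0.12 and 0.19, and of the AS libraries only replicate 3 correlated best with its own number. These values gave no clear sign of pairing by number, but 3 libraries a group cannot exclude it. Library totals alone moved the median of all genes from 0.08 to 0.36 and the log2 ratio of summed Ugt CPM from -0.61 to -0.31. They reversed Gstm1 (0.11), Gstm4 (0.057), Ugt1a1 (0.34) and Ugt2b38 (0.13), shifts smaller than or near that of the median. Gstm5, close to 0 throughout, was -0.028 with median-ratio factors, -0.0077 with no filter, -0.020 with the replicate block, -0.028 by DESeq2 and -0.0086 by limma-voom. Ugt1a6b and Ugt1a9 were -0.31 and -0.41 with the replicate block and -0.26 and -0.39 by limma-voom. With AS replicates 2 and 3 summed, Ugt1a1 was 0.11. Without AS replicate 1 and SS replicate 3 together, the reversed values were Gstm1 0.19, Gstm4 0.041, Ugt1a5 -1.20, Ugt1a6b -1.44, Ugt1a9 -1.62 and Ugt2b37 0.28.

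With 1 library left out, values that changed sign ran from -0.076 to 0.62 for Gsta2, -0.24 to 0.31 for Gsta4, -0.51 to 0.21 for Gstm1, -0.43 to 0.11 for Gstm4, -0.20 to 0.21 for Gstm5, -0.24 to 0.46 for Gstm6, -0.16 to 0.43 for Gstp1, -1.35 to 0.41 for Ugt1a1, -0.81 to 0.87 for Ugt1a5, -1.23 to 0.52 for Ugt1a6b, -1.35 to 0.46 for Ugt1a9, -1.78 to 0.19 for Ugt2b37 and -1.27 to 0.15 for Ugt2b38. The medians ran from -0.99 to -0.32 for Ugt and -0.45 to 0.16 for Gst members.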

Other observations

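Genes known for higher expression in female mouse liver, several of them conjugating or oxidising enzymes that act on the same substrates as the Ugt and Gst families, had lower levels in SS. The summed CPM of 10 such genes was 2605, 2825 and 2762 in AS replicates 1, 2 and 3 and 1440, 885 and 1092 in SS replicates 1, 2 and 3. All 10 had fitted values below 0, 8 of them with an unadjusted p under 0.05, and edgeR called 0. Over all genes tested, 43.7% had fitted values below 0 and 3.58% were lower at that p, and of genes whose mean reached 100 CPM 81.5% and 15.4%. The median log2 change of this list was -1.37, against 0.08 over all genes tested. AS replicate 1 had a sum near the other AS libraries, but its members differed in both directions. Cyp3a44 had 372 CPM there against 132 and 111 CPM in AS replicates 2 and 3, and Sult3a1 had 291 CPM against 92.1 and 103 CPM. Sult2a1 had 201 CPM there against 505 and 522 CPM.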
